A study of Homo sapiens with 6 samples.

Results

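The activin genes described here are 9 rows of a table of 28395 genes. They are the subunit genes INHBA and INHBB, the follistatin family genes FST, FSTL1 and FSTL3, the type I receptor genes ACVR1 and ACVR1B, and the type II receptor genes ACVR2A and ACVR2B. The members were picked by name and matched by Entrez gene ID, with no measured value in the rule. Earlier results of these data were known when they were picked. All 9 were found and had counts. The cells were TC28a2, a human chondrocyte line made immortal, and their RNA was taken 48 h after a vector that overexpresses ZEB1, or a control vector, was transfected. ZEB1 is a zinc finger transcription factor that represses E-cadherin and drives the epithelial to mesenchymal transition, and it was overexpressed in work on senescent cells in osteoarthritis. Each vector had 3 libraries, made by DRUG-seq, a low-cost multiplexed form of RNA-seq. The promoter of the vector is not given in the sources used here. Nothing states that replicates came from separate cultures, so p-values measure the spread between these libraries, which may be technical.

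Activins are dimers of inhibin beta chains: a pair of INHBA chains makes activin A, a pair of INHBB chains makes activin B. The dimer binds a type II receptor, which then phosphorylates a type I receptor, and ACVR1B passes the signal on to SMAD2 and SMAD3. Follistatin, from FST, wraps the ligand and blocks its receptor sites, and FSTL3 acts in a like way. In cartilage, activin A is known as a product of chondrocytes that is induced on injury, and as a secreted factor of senescent cells.

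The ZEB1 libraries held 1277632 to 3316228 counts and the control libraries 5359200 to 5878640, so low values are less certain with the ZEB1 vector. ZEB1 itself had 12267, 14047 and 6894 CPM in ZEB1 replicates 1, 2 and 3, against 32.6, 20.8 and 21.4 CPM in control replicates 1, 2 and 3. CPM is the count scaled to a common library size, here after TMM, edgeR's correction for library composition. Reads from the vector and from the chromosomal gene were not separated. Of 11 chondrocyte markers 10 had a count, 8 were at 0 in the ZEB1 libraries and COL9A1 was at 0 in all, and their summed level was 61.1 to 82.6 CPM with the ZEB1 vector and 56.1 to 86.8 CPM with the control vector. SOX9 was the one with enough counts to be tested (log2 fold change 0.01, SE 0.21), and ACAN and COL2A1 had 0 counts in the ZEB1 libraries and 13 and 11 in the controls. Transcripts of the defining cartilage matrix genes were thus nearly absent under both vectors. The summed level of 6 leukocyte markers was 175.8 to 257.7 CPM with the ZEB1 vector and 179.6 to 201.8 CPM with the control vector, most of it from SRGN. For 6 endothelial markers it was 37.3 to 61.1 and 32.9 to 48.0 CPM. For 6 epithelial markers it was 875.8 to 1019 and 930.8 to 1025 CPM, nearly all of it from KRT8 and KRT18. In the ZEB1 libraries and the controls EPCAM had 6 and 12 counts, CDH1 (E-cadherin) 0 and 9, KRT19 2 and 0, and CLDN4 9 and 32. Such summed counts are not scaled for depth, which was lower in the ZEB1 libraries. Of single markers, PECAM1 (endothelial) had 4, 12 and 22 counts in ZEB1 replicates 1, 2 and 3, against 9, 6 and 11 in control replicates 1, 2 and 3, with all ZEB1 libraries higher in CPM (log2 fold change 2.04, SE 0.87, edgeR adjusted p = 0.462). EGFL7, which held most of the endothelial counts, had a log2 fold change of 0.12 (SE 0.27, edgeR adjusted p = 0.928) with overlapping groups. The endothelial marker CDH5 had 0 counts in the ZEB1 libraries and 5 in the controls. At the mean control level 1.80 counts of CDH5 would have been found in the ZEB1 libraries. VWF had 4 counts in the ZEB1 libraries, where 2.78 would have been found at the mean control level, and 8 in the controls. KDR had 4 and 1, and TEK 6 and 0. Of the leukocyte markers, SRGN had a log2 fold change of 0.38 (SE 0.18, edgeR adjusted p = 0.520) with overlapping groups, and LAPTM5 had -0.56 (SE 0.28, edgeR adjusted p = 0.566) with all ZEB1 libraries lower. CD14 had 4 counts in the ZEB1 libraries, where 12.1 would have been found at the mean control level. CD68 had a log2 fold change of -0.10 (SE 0.46) with overlapping groups. PTPRC was at 0 in the ZEB1 libraries and had 2 counts in the controls, and CD3E was at 0 in all. The part of such transcripts in the results was not tested.

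Promoter windows show which members carry the letters that ZEB1 is known to bind, the E-box CAGGTG or CAGGTA. The windows run from 250 bases before to 50 after an annotated start (RefSeq, GRCh38.p14), and all 9 members had at least 1, 12 windows in all. CAGGTG, searched on both strands, was in 1 window of FST and in 1 of the 2 windows of ACVR1B, and in 20.6% of 35116 promoter windows of the same length. CAGGTA was in 0 of the 12 and in 9.83% of all windows. TGANTCA, the letters of AP-1 sites, was in the FST window, where it overlaps the E-box, and in 1 of the 3 windows of ACVR1, against 7.71% of all windows. The window of INHBA is shown as that of the member with the smallest p below, FST as the member with both motifs, and the second of ACVR1B as the other with an E-box. Capitals mark CAGGTG in either direction and TGANTCA, and sequences read 5′ to 3′ on the strand of the gene. INHBA has no capitals since its window held neither. That window lies inside the INHBA locus, which runs to 41705406, so the 5′ end of the locus was not searched.
INHBA, chr7:41703041-41703340, minus strand: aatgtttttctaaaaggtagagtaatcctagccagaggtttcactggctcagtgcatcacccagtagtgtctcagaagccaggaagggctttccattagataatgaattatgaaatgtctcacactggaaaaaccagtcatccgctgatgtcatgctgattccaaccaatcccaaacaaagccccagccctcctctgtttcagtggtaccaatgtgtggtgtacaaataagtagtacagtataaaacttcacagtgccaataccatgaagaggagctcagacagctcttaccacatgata
FST, chr5:53480379-53480678, plus strand: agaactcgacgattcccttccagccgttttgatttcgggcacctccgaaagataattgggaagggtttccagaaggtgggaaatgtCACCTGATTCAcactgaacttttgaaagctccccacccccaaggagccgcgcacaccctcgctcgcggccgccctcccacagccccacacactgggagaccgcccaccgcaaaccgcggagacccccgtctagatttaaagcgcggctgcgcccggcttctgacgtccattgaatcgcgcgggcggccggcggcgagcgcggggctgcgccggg
ACVR1B, chr12:51953134-51953433, plus strand: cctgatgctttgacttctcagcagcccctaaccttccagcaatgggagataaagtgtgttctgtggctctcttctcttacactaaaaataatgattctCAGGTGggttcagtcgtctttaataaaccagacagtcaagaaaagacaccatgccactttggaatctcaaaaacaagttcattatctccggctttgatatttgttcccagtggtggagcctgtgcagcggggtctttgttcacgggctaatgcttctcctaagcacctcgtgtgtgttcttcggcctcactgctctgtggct
In FST the E-box reads CACCTG on the strand of the gene and starts 164 bases before the annotated start. A match describes letters and was not tested as a site.

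Against the control vector, INHBA, FST, FSTL1 and ACVR2A were lower in all 3 ZEB1 libraries than in any control, and the other 5 members overlapped. Groups were separated in this direction in 8.16% of the 11329 genes tested. By edgeR's quasi-likelihood test 0 of the 9 members passed an adjusted p of 0.05 over all genes, as did 0.00883% of all genes, which is ZEB1 alone. At an unadjusted p under 0.05 there were 4 members, the same 4, all lower, where 3.57% of all genes were lower and 5.83% higher at that p. DESeq2, limma-voom, limma-voom with quality weights and edgeR with no filter on low counts each called 1 member, INHBA, which was lower. DESeq2 gave an adjusted p to 2 of the 9 members and to 1765 genes in all, of which it called 11.6%, and 0.85% as lower. limma-voom called 0.512% of 11329 genes (0.0353% lower), the version with quality weights 1.36% (0.0883% lower), and edgeR with no filter 0.693% of 18319 genes (0.0928% lower). All 9 members passed the filter on low counts, but ACVR2A passed it by the controls alone (0 of 3 ZEB1 libraries above the filter's level) and FST with 1 of 3 ZEB1 libraries above it. A gene that passes by the controls alone had to be lower with the ZEB1 vector, and FST passed mainly by the controls. These counts of members are thus a description. In whole-culture RNA, fewer cells that express a gene and less RNA per cell cannot be told apart.

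**Figure D1:**
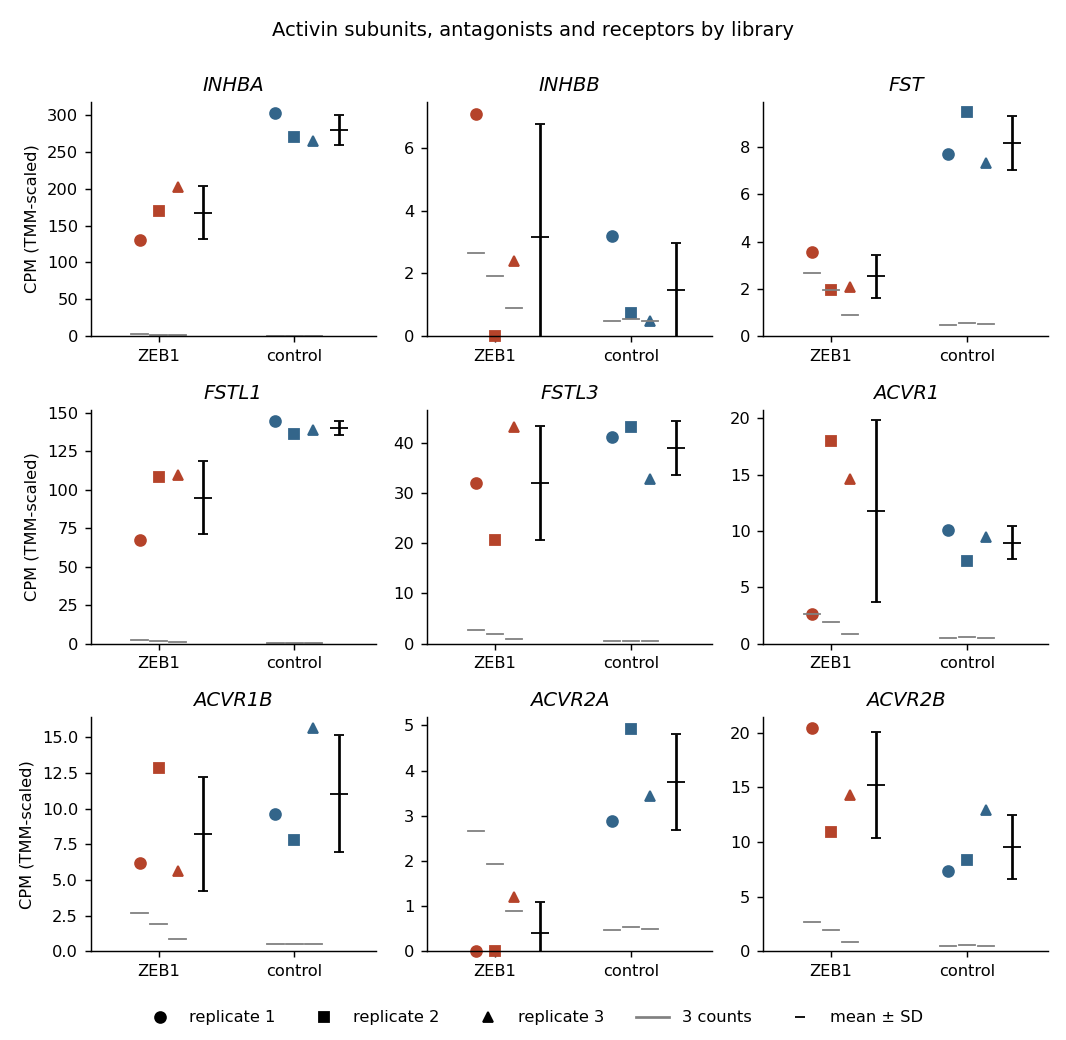
TMM-scaled CPM (vertical axes, from 0) of the 9 genes in each library, with ZEB1 vector libraries left of control vector libraries. Marker shapes give the replicate number, black bars the mean ± SD (n = 3), and grey dashes the level of 3 counts in that library. INHBA, FST, FSTL1 and ACVR2A show ZEB1 libraries all below the controls, and 2 ZEB1 libraries have 0 counts of ACVR2A.

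INHBA (Entrez 3624, chromosome 7, 41685114 to 41705406, GRCh38.p14) encodes the activin A chain. It had 146, 264 and 677 counts in ZEB1 replicates 1, 2 and 3, against 1888, 1483 and 1623 counts in control replicates 1, 2 and 3. Scaled to CPM this was 129.7, 169.8 and 201.7 with the ZEB1 vector, against 302.8, 270.4 and 264.9 with the control vector. All ZEB1 libraries were low, and the highest of them stayed under the lowest control. At the mean control level the ZEB1 libraries would have held 314.4, 434.4 and 937.8 counts of INHBA, more than was counted in each. The mean was 167.1 ± 36.0 CPM with the ZEB1 vector and 279.3 ± 20.5 CPM with the control vector (SD, n = 3 each), a log2 fold change of -0.73 (SE 0.17) that ranked 20th of 11329 genes by p (edgeR adjusted p = 0.161). The call depended on the method: the adjusted p was 0.00459 in DESeq2, 0.0333 in limma-voom, 0.0102 with quality weights and 0.00456 with no filter on low counts. Without ZEB1 replicate 3 edgeR also called INHBA (log2 fold change -0.90, adjusted p = 0.00579), with 3.38% of all genes called and 0.984% called lower. Within the ZEB1 group INHBA was lowest in replicate 1 and highest in replicate 3, which is the deepest library and the one with the least ZEB1. With replicate 3 as the sole ZEB1 library, a setting added after seeing the data, the log2 fold change was -0.48 (adjusted p = 0.472). The antisense gene INHBA-AS1 overlaps the locus. It had 0, 0 and 12 counts in ZEB1 replicates 1, 2 and 3, against 10, 1 and 5 in the controls. At the mean control level 5.24 counts of INHBA-AS1 would have been found in the ZEB1 libraries. Whether the counting used strand is not stated.

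INHBB (Entrez 3625, chromosome 2, 120346136 to 120351803), which encodes the activin B chain, was near the limit of counting. It had 8, 0 and 8 counts in ZEB1 replicates 1, 2 and 3, against 20, 4 and 3 counts in control replicates 1, 2 and 3. The groups overlapped, and 1 control library held most of the control counts. The log2 fold change was 0.98 with an SE of 1.20, and it was -0.10 without ZEB1 replicate 1, so no direction was detectable at this depth.

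Of the 3 follistatin family genes, FST and FSTL1 had separated groups and FSTL3 did not. FST (Entrez 10468, chromosome 5, 53480629 to 53487134) encodes follistatin, the antagonist that holds activin in an inactive complex. It had 4, 3 and 7 counts in ZEB1 replicates 1, 2 and 3, against 48, 52 and 45 counts in control replicates 1, 2 and 3. In CPM this was 3.55, 1.93 and 2.09 with the ZEB1 vector, against 7.70, 9.48 and 7.34 with the control vector. At the mean control level 9.20, 12.7 and 27.4 counts would have been found in the ZEB1 libraries, so that all 3 were short of it. The log2 fold change was -1.74 (SE 0.69, edgeR adjusted p = 0.411). The ratio of summed counts per scaled total, ZEB1 over control, was 0.285, and its exact 95% bounds were 0.152 and 0.495 (counting error alone, without the spread between libraries). Leaving out single libraries kept the log2 fold change of FST between -2.00 and -1.62. FST passed the filter on low counts mainly by the controls, so its separated groups, bounds, expected counts and this range are a description.

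FSTL1 (Entrez 11167, chromosome 3, 120392293 to 120450992) encodes a secreted glycoprotein with a follistatin domain, which is better known for effects on BMP and inflammatory signalling than as an activin inhibitor. Its counts were 76, 168 and 367 in ZEB1 replicates 1, 2 and 3, against 904, 746 and 851 in control replicates 1, 2 and 3. FSTL1 averaged 94.96 ± 23.8 CPM with the ZEB1 vector and 140.0 ± 4.60 CPM with the control vector (SD, n = 3 each). Replicate 1 was the low one at 67.5 CPM, and ZEB1 replicates 2 and 3 lay close together at 108.0 and 109.3 CPM, under the lowest control at 136.0 CPM. The log2 fold change was -0.54 (SE 0.19, edgeR adjusted p = 0.303), and it was -0.37 without ZEB1 replicate 1. FSTL1 has the microRNA gene MIR198 within its locus, which had 0 counts.

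FSTL3 (Entrez 10272, chromosome 19, 676392 to 683385) encodes a follistatin-like inhibitor of activins and myostatin. It had 32.0, 20.6 and 43.2 CPM in ZEB1 replicates 1, 2 and 3, against 41.1, 43.0 and 32.8 CPM in control replicates 1, 2 and 3. The highest single value came from a ZEB1 library and the groups overlapped. FSTL3 had a log2 fold change of -0.26 (SE 0.29, edgeR adjusted p = 0.847), and of 0.14 with replicate 3 as the sole ZEB1 library.

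A ratio of 2 genes within a library does not depend on how libraries are scaled. There were 36.5, 88.0 and 96.7 INHBA counts per FST count in ZEB1 replicates 1, 2 and 3, against 39.3, 28.5 and 36.1 in control replicates 1, 2 and 3. The ratio was high in ZEB1 replicates 2 and 3 and within the control range in replicate 1, and its denominators there were 3 to 7 counts. The mean difference in log2 ratio was 0.98 (exact two-sided permutation p = 0.2, n = 3 each, where 0.1 is the smallest p this design allows). With FSTL3 added to the denominator the difference was -0.26 (exact permutation p = 0.5), so the sign depended on which inhibitors were counted. Per FSTL1 count there were 1.92, 1.57 and 1.84 INHBA counts with the ZEB1 vector, against 2.09, 1.99 and 1.91 with the control vector. Those ranges overlapped, and both genes were lower in CPM in the same libraries.

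The type I receptor genes had log2 fold changes of opposite sign, neither beyond its error. ACVR1B (Entrez 91, chromosome 12, 51951699 to 51997078), the receptor kinase that serves activin, had 7, 20 and 19 counts in ZEB1 replicates 1, 2 and 3, against 60, 43 and 96 in control replicates 1, 2 and 3. Its log2 fold change was -0.44 (SE 0.51, edgeR adjusted p = 0.854). ACVR1 (Entrez 90, chromosome 2, 157736446 to 157876330) encodes a receptor kinase that mainly serves bone morphogenetic proteins and can bind activin A without signalling. It had 3, 28 and 49 counts in ZEB1 replicates 1, 2 and 3, against 63, 40 and 58 in control replicates 1, 2 and 3. In CPM ACVR1 stood at 2.67, 18.0 and 14.6 with the ZEB1 vector, against 10.1, 7.29 and 9.46 with the control vector, so that ZEB1 libraries lay on both sides of the controls. The log2 fold change of ACVR1 was 0.44 (SE 0.52, edgeR adjusted p = 0.857), and 0.10 without ZEB1 replicate 2.

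The type II receptor genes also differed in sign, and here ACVR2A had separated groups. ACVR2A (Entrez 92, chromosome 2, 147844517 to 147930822) had 0, 0 and 4 counts in ZEB1 replicates 1, 2 and 3, against 18, 27 and 21 counts in control replicates 1, 2 and 3. The control level was 2.89, 4.92 and 3.43 CPM, while 3 counts stood for 2.67, 1.93 and 0.894 CPM in ZEB1 replicates 1, 2 and 3. At the mean control level 4.21, 5.82 and 12.6 counts would have been found there. The ratio of summed counts per scaled total, ZEB1 over control, was 0.179, and its exact 95% bounds were 0.0474 and 0.481, again for counting error alone. ACVR2A passed the filter on low counts by the controls alone, so it had to be lower. Its separated groups, bounds and expected counts are thus a description. The fitted log2 fold change was -2.63 (SE 1.16, edgeR adjusted p = 0.485), and it was -6.95 without ZEB1 replicate 3, which held all the counts of the group. ORC4 overlaps the ACVR2A locus and had 21.1 ± 4.11 CPM with the ZEB1 vector and 19.2 ± 2.04 CPM with the control vector (SD, n = 3 each), and whether the counting used strand is not stated. ACVR2B (Entrez 93, chromosome 3, 38453890 to 38493142), the other activin type II receptor, had 23, 17 and 48 counts in ZEB1 replicates 1, 2 and 3, against 46, 46 and 79 in control replicates 1, 2 and 3. Its level was 20.4, 10.9 and 14.3 CPM with the ZEB1 vector, against 7.38, 8.39 and 12.9 CPM with the control vector. ACVR2B thus leaned higher with overlap (log2 fold change 0.65, SE 0.44, edgeR adjusted p = 0.701).

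Shares within a receptor pair also do not depend on scaling, and were computed after these values were seen. ACVR2A made up 0 of 23, 0 of 17 and 4 of 52 counts of the type II pair in ZEB1 replicates 1, 2 and 3, and the third share was 7.69%. The upper ends of the exact 95% intervals were 14.8%, 19.5% and 18.5%, and by the limit of 3 counts the counts of 0 allow up to 13.04% and 17.6%. In control replicates 1, 2 and 3 it made up 28.1%, 37.0% and 21% of 64, 73 and 100 counts. The mean share was 2.56% ± 4.44 with the ZEB1 vector and 28.7% ± 8.01 with the control vector (SD, n = 3 each), a description of values already seen, with no test. ACVR1B made up 46.5% ± 21.4 of the type I pair with the ZEB1 vector and 54.3% ± 7.12 with the control vector (SD, n = 3 each), and those shares overlapped. These are shares of counts, and counts of 2 genes are not levels per length.

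**Figure D2:**
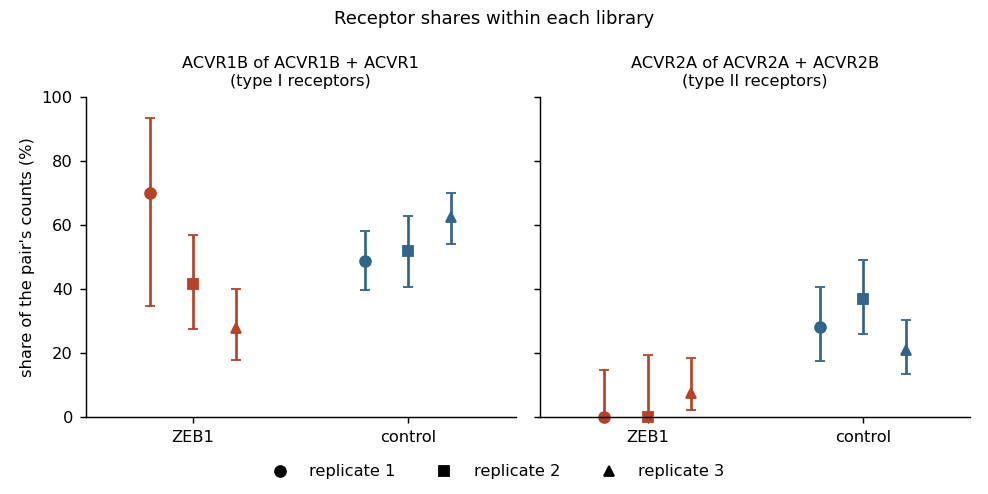
Share of the pair's counts (%, vertical axis) taken by ACVR1B among type I receptors (left) and by ACVR2A among type II receptors (right) in each library, with ZEB1 vector libraries left of control vector libraries. Bars are exact 95% Clopper-Pearson intervals, which cover counting error. The ACVR2A share is 0 to 7.69% with the ZEB1 vector and 21% to 37.0% with the control vector, while the ACVR1B shares overlap.

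The median log2 fold change of the 9 members was -0.44, with 6 lower and 3 higher, and that of all 11329 genes was -0.01. Of all genes tested 5835 were lower and 5494 higher. ACVR2A was tested by way of the controls alone and FST mainly so, so the members' median and tally are a description. With counts thinned at random to the smallest library, 5 members could be tested. Their median was -0.05, so the members' median depended on depth or on which members were left. The members' values spanned -2.63 to 0.98, with a median SE of 0.51 against 0.33 for all genes, and 6 of the members had mean counts under 50. The sign held in all alternatives in which the gene could be tested for INHBA, FST, FSTL1, ACVR1, ACVR1B, ACVR2A and ACVR2B. For ACVR2A, which passed the filter on low counts by the controls alone, and FST, which passed mainly so, this is a description. The sign turned in 1 alternative each for INHBB and FSTL3. There were 16 such alternatives for most members, but 15 for FST and ACVR1B, 14 for ACVR2A and 13 for INHBB. The rest lost these genes to the filter on counts.

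**Figure D3:**
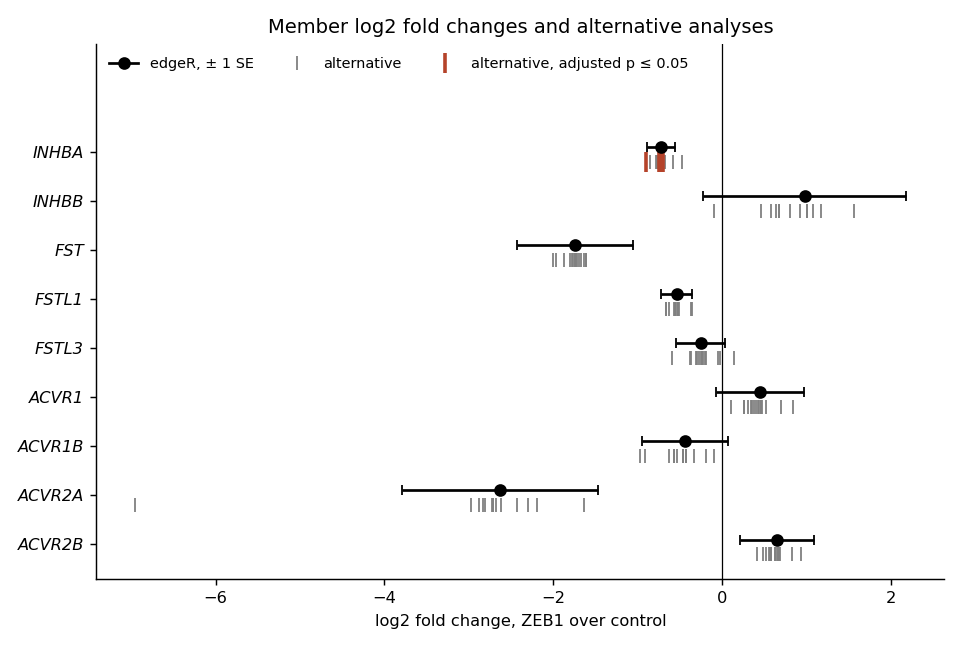
Log2 fold change of each of the 9 genes, ZEB1 vector over control vector (horizontal axis), with the edgeR value ± 1 SE as a black point. Grey ticks are the alternative analyses and red ticks those with an adjusted p of at most 0.05. The red ticks all belong to INHBA, and the far tick of ACVR2A at -6.95 is the fit without ZEB1 replicate 3.

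Among 38 other genes of the activin pathway 9 had no count and 21 could be tested. The median log2 fold change was -0.05, with 10 higher and 11 lower. By edgeR 0 passed an adjusted p of 0.05, 1 had an unadjusted p under 0.05, and limma-voom called 0. DESeq2 gave an adjusted p to 1 of these genes, so its count of 0 calls says little. Across all genes 9.40% had an unadjusted p under 0.05. The other inhibin chains were barely counted. INHA, the alpha chain that turns an activin chain into an inhibin, had 0 counts in any library, and INHBC had 2 counts. INHBE had 0, 15 and 2 counts in ZEB1 replicates 1, 2 and 3, and 25 counts with the control vector. At the mean control level 8.16 counts of INHBE would have been found in the ZEB1 libraries. Myostatin (MSTN), NODAL, GDF1 and GDF3, ligands that share the receptors, had 0 counts, and GDF11 had a log2 fold change of -0.20 (SE 0.29).

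The gene with the smallest p of that list was PCSK7, a proprotein convertase of the family that cleaves such precursors. PCSK7 had 34.7, 44.4 and 15.2 CPM in ZEB1 replicates 1, 2 and 3, against 16.7, 21.9 and 13.2 CPM in control replicates 1, 2 and 3. It was high in 2 ZEB1 libraries and within the control range in replicate 3 (log2 fold change 0.82, SE 0.38, edgeR adjusted p = 0.513). FURIN, the main convertase, had a log2 fold change of -0.15. The 3 members of the list with the highest mean count were FKBP1A, which holds type I receptors inactive, SMAD3, which carries the signal to the nucleus, and SMURF2, a ubiquitin ligase for SMADs and receptors. FKBP1A had 544.1 ± 61.4 CPM with the ZEB1 vector and 562.8 ± 28.6 CPM with the control vector (SD, n = 3 each). The log2 fold change was -0.26 (SE 0.23) for SMAD3 and -0.34 (SE 0.25) for SMURF2. SMAD2 and SMAD4 stood at 0.07 and 0.08, and the TGF-beta receptor genes TGFBR1 and TGFBR2 at 0.04 and -0.39.

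Genes known as SMAD2 and SMAD3 targets were lower in 9 of 13 tested and higher in 4, with a median log2 fold change of -0.25. Of all 11329 genes tested 5835 were lower and 5494 higher. By edgeR 0 of the 13 passed, and 4 had an unadjusted p under 0.05, 3 lower and 1 higher, where 3.57% of all genes were lower and 5.83% higher at that p. DESeq2 gave an adjusted p to 5 of the 13 and called 1 (11.6% of its 1765 genes), limma-voom called 0, and limma-voom with quality weights called 1 (1.36% of all genes). All ZEB1 libraries lay below all controls for 4 of them and above for 1, where 8.16% and 6.96% of all genes did so.

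CCN2, a matricellular growth factor gene, had 136.7 ± 3.43 CPM with the ZEB1 vector and 177.3 ± 6.68 CPM with the control vector (SD, n = 3 each, log2 fold change -0.38). CDKN1A, which encodes the cell cycle inhibitor p21 and is also a p53 target, had 67.7 ± 9.25 CPM with the ZEB1 vector and 108.5 ± 22.1 CPM with the control vector (SD, n = 3 each, log2 fold change -0.68). TGFBI, a secreted matrix protein gene, had separated groups with a small difference (log2 fold change -0.13, SE 0.14), and PMEPA1, which encodes a membrane protein that restrains SMAD activation, had -0.28 (SE 0.17). SKIL was the gene of this list with ZEB1 libraries all above the controls. It encodes SnoN, a SMAD corepressor that the pathway induces, and it had 80.0, 65.6 and 56.9 CPM in ZEB1 replicates 1, 2 and 3, against 48.1, 40.7 and 48.3 CPM in control replicates 1, 2 and 3 (log2 fold change 0.55, SE 0.22, edgeR adjusted p = 0.415). SMAD7, the inhibitory SMAD, had a log2 fold change of -0.25 (SE 0.88). LEFTY1 and LEFTY2, activin and nodal targets of early development, had no count.

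**Figure D4:**
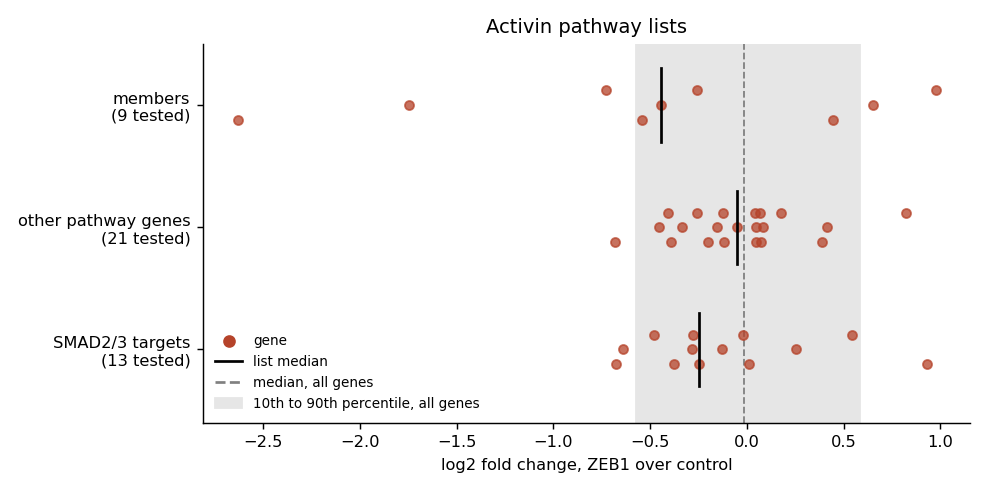
Log2 fold change, ZEB1 vector over control vector (horizontal axis), of each tested gene among the 9 activin genes, 21 other pathway genes and 13 SMAD2 and SMAD3 targets. Black lines are list medians (-0.44, -0.05 and -0.25), the dashed line is the median of all genes, and the grey band spans the 10th to the 90th percentile of all genes (-0.57 to 0.58).

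The genes whose profile lay nearest to INHBA were found by the root mean square difference of log2 CPM, each relative to its control mean, over the 6 libraries, among the 5631 tested genes whose mean count reached 100. They were ADAM19 (0.0373), a metalloprotease, FBXO45 (0.0884), a ubiquitin ligase subunit, and FOSL1 (0.0923), an AP-1 subunit, while the median difference over those genes was 0.59. Relative to the control mean INHBA stood at -1.10, -0.71 and -0.47 in ZEB1 replicates 1, 2 and 3, and ADAM19 at -1.16, -0.76 and -0.45. FSTL1, the follistatin family gene with the highest mean count, lay nearest to PDP2 (0.0415), a phosphatase subunit for pyruvate dehydrogenase, COL6A1 (0.0550), a collagen VI chain, and FBXO45 (0.0776). These profiles share an order of the ZEB1 libraries in which replicate 1, the shallowest library, was lowest. In ZEB1 replicates 1 and 2 ADAM19 had 36 and 66 counts, FBXO45 28 and 57, and PDP2 21 and 49. The differences are the smallest picked from 5631 genes, and counting error was not set against them.

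**Figure D5:**
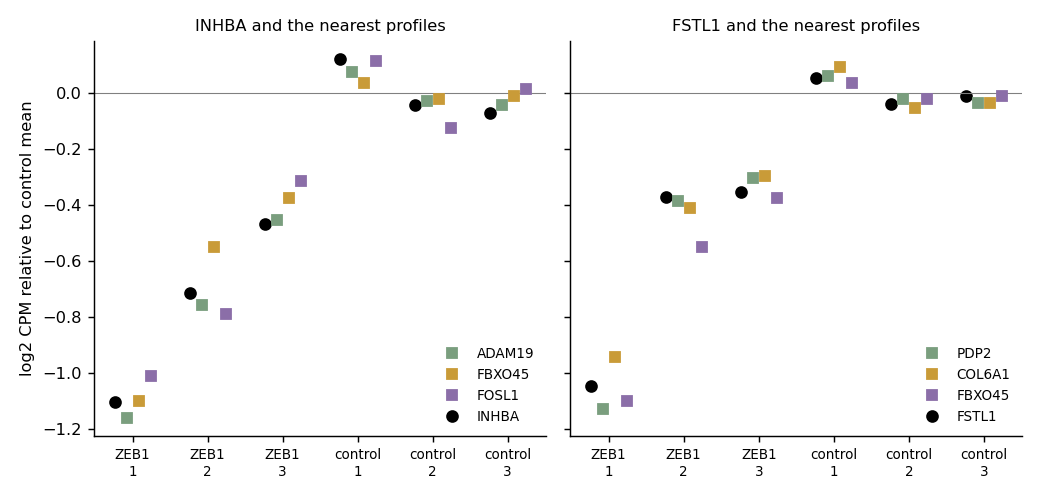
Log2 CPM relative to the mean of the control libraries (vertical axis) in each library for INHBA (left, black) and FSTL1 (right, black) and the 3 genes with the nearest profile (coloured squares). ZEB1 vector libraries are left of control vector libraries, and in each panel ZEB1 replicate 1 is lowest, at -1.10 for INHBA and -1.05 for FSTL1.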

How the data were processed

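RNA of TC28a2 cells was measured in 6 libraries, 3 with a ZEB1 vector and 3 with a control vector. The authors deposited raw counts per Entrez gene. The submitters' processing notes name HISAT2, Subread, featureCounts and GRCh38, and give no versions. The annotation release, the strand setting and any use of molecular identifiers are not stated in these sources. Without such identifiers reads are not independent molecules, so intervals and the limit of 3 counts cover counting error only. Symbols came from RefSeq (GRCh38.p14), which matched 27745 of 28395 IDs. Counts were tested with edgeR 4.0.16 (R 4.3.3; quasi-likelihood, robust, TMM, filterByExpr, group as the term), two-sided, with Benjamini-Hochberg adjustment over 11329 genes. Standard errors were derived from the F statistic. Log2 CPM used a prior count of 2. DESeq2 1.42.0, limma-voom (limma 3.58.1), other scalings and filters, thinning, a replicate block and left-out libraries were alternatives. Members and lists were chosen with earlier results of these data known. All members are named, with ZEB1, called genes of each other list or its 3 most counted plus those at an unadjusted p under 0.05, and the 3 nearest profiles; other list genes were named after their values were seen. One target gene that this rule names is not reported here. The fit was tested on simulated data.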

Additional observations from a re-analysis of the deposited data

How the results depend on the processing

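The log2 fold change of INHBB ran from -0.10 (without ZEB1 replicate 1) to 1.57 on leaving out single libraries. That of FSTL3 was 0.14 without ZEB1 replicates 1 and 2 together, a setting added after seeing the data. Of the other named genes FKBP1A ran from -0.15 to 0.0051 (without ZEB1 replicate 1) on leaving out single libraries, and SMURF2 (0.065) and PCSK7 (-0.19) turned without ZEB1 replicates 1 and 2. edgeR called 1 gene in all, against 127 with no filter on low counts, 205 with DESeq2, 58 with limma-voom, 154 with limma-voom and quality weights, and 2 without ZEB1 replicates 1 and 2, and 1 to 409 on leaving out single libraries. The member count was 1, INHBA, with no filter, DESeq2, limma-voom and quality weights, and 0 to 1 on leaving out single libraries (1 without ZEB1 replicate 3). SMAD2 and SMAD3 targets had 1 call with DESeq2 and with quality weights, and 0 to 1 on leaving out single libraries. The cause of these shifts was not tested. DESeq2 adjusted over 1765 genes and gave 2 of the 9 members an adjusted p. The adjusted p of INHBA ranged from 0.00456 to 0.873 over 16 alternatives. With library size as the scaling the median of all genes moved to -0.14, and INHBA was at -0.85. INHBA counts per FST count differed by 0.72 to 1.43 in log2 on leaving out single libraries, and by -0.26 with FSTL3 in the denominator. The share of ACVR1B in its pair differed by -19.5 to 1.52 percentage points on leaving out single libraries, and that of ACVR2A by -30.0 to -22.0. The range for ACVR2A is a description, since that gene passed the filter on low counts by the controls alone. Same-numbered libraries did not deviate together (correlations of -0.03, -0.01 and 0.01), so no pairing by number was detectable. Whether the design paired them is not stated. With the replicate block 1 gene and 0 members were called, and INHBA had a log2 fold change of -0.75 (adjusted p = 0.144). Thinning to 1277632 counts left 5 of 9 members testable, and their median log2 fold change was -0.05.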
